A study of Mus musculus with 12 samples.

Results

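Of 8704 H3K27ac regions on the stretch of the mouse genome that could be compared, 1475 carried a peak in the young vehicle library and in none of the other 3 libraries. These regions are the subject here. They were found by merging the peaks of the 4 H3K27ac lists wherever peaks overlapped by at least 1 bp or touched, on chromosomes 1 and 2 and on chromosome 3 up to position 122275556 (GRCm38). They were thus chosen by the presence and absence of peaks, and their number is a description rather than a result of a test.

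The series profiled histone acetylation by ChIP-seq, in which chromatin is precipitated with an antibody against a modified histone and its DNA is sequenced. The cells were fibro-adipogenic progenitors (FAPs), sorted by flow cytometry from C57Bl6 mdx mice, a dystrophin-deficient strain used as a model of Duchenne dystrophy. All mice carried the mdx background, and no group of healthy mice was compared. The groups were old mice given trichostatin A (TSA), old mice given vehicle, young mice given TSA and young mice given vehicle. Old mice were 12 months and young mice 1.5 months of age, TSA was injected daily into the peritoneum at 0.6 mg/kg/day, vehicle was saline, and either ran for 15 days before the cells were isolated. Each group had 1 library for H3K27ac and 1 for acetylation of lysines 9 and 14 of the same histone (H3K9/14ac). Without replicates no test between groups is possible, and every difference below is between single libraries. The intervals printed are exact 95% binomial intervals and cover counting error only.

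H3K27ac marks active promoters and, away from them, active enhancers, the stretches that raise transcription of genes at a distance. It is placed by the acetyltransferases p300 and CBP and removed by histone deacetylases, the enzymes that TSA inhibits. H3K9/14ac is found mainly at active promoters. FAPs are mesenchymal cells of skeletal muscle that help muscle stem cells after injury, and in dystrophic muscle they give rise to matrix-producing fibroblasts and to fat cells.

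The members rarely lay on a gene start, so the few that did are shown first. In the RefSeq promoter table (GRCm38.p6; 250 bases before to 50 bases after each start, not complete for all genes), 6 protein-coding genes had their annotated start inside a member, namely Wipf1, Ttf2, Ugt1a7c, Nek2, Cd46 and Zfp661. Ttf2, a factor that releases RNA polymerase II from DNA, and Ugt1a7c, an enzyme that attaches glucuronic acid to small molecules, are printed because their members were among the 10 with most tags at a gene end. Nek2, a kinase of the centrosome, was added after its values were seen, because its member overlapped H3K9/14ac peaks in all 4 libraries while H3K27ac was called in young vehicle alone. The Zfp661 member did so too, with 107 H3K9/14ac tags in old TSA, 191 in old vehicle, 76 in young TSA and 101 in young vehicle. The window of Zfp661 is not printed. The windows lie at chr3:100969614-100969913 (minus strand), chr1:88094751-88095050 (plus strand) and chr1:191821223-191821522 (plus strand). Each is written 5′ to 3′ on the gene's strand, with matches on either strand to the letters searched for AP-1, TEAD, the CCAAT box and the GC box in capitals. Members covered only the last 99 of the 300 bases at Ttf2, the last 275 at Ugt1a7c and the last 62 at Nek2. Capitals before those bases lie outside the member.
Ttf2: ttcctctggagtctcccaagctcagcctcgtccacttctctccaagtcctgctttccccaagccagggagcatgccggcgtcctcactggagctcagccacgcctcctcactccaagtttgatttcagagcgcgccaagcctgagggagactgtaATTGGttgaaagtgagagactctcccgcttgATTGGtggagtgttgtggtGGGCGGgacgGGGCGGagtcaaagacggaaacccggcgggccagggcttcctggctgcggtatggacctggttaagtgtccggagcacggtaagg
Ugt1a7c: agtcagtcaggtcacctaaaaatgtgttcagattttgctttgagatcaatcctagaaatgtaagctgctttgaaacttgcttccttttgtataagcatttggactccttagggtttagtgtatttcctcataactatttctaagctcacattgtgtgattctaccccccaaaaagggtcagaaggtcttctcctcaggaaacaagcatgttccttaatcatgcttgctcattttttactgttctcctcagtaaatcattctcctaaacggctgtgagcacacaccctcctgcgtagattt
Nek2: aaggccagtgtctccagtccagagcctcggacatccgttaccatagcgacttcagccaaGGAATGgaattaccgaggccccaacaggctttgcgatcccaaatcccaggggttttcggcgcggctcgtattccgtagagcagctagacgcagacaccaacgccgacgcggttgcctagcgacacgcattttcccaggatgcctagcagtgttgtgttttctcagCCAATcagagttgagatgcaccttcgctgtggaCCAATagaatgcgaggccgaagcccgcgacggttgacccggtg

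The letters CCAAT, on either strand as for every motif here, stood in 5 of the 6 windows, against 37.4% of the table's 32851 promoters. The GC box, searched as GGGCGG, stood in 1 of 6 windows against 35.7% of all promoters. For TEAD the letters GGAATG were found in 1 window against 14.7% of all. For AP-1 the letters TGANTCA were found in 0 windows against 7.81% of all. RUNX letters (TGTGGT) were found in 3 of 6 windows against 16.8% of all, E-box letters (CANNTG) in 3 against 72.3%, and NFI letters (TTGGC) in 4 against 46.7%. Whole windows were searched, of which members covered from 62 bases at Nek2 to 275 at Ugt1a7c. The CCAAT matches at Ttf2, and the GGAATG and first CCAAT match at Nek2, lay outside the member. With 6 windows these shares are descriptive. The GC content was 60.0% for Ttf2, 40.0% for Ugt1a7c and 57.3% for Nek2, against a median of 52.7% over the table. The Nek2 member (chr1:191821461-191821943) held 59 H3K27ac tags, and its nearest H3K27ac peaks lay 18268 bp away in old TSA, 84783 bp in old vehicle and 18310 bp in young TSA. The H3K9/14ac peak on it held 72 tags in old TSA, 211 in old vehicle, 170 in young TSA and 94 in young vehicle.

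One miRNA hairpin of the 161 on the stretch overlapped a member, against 16 that overlapped a region found in every library. It was that of miR-30a, a member of a miRNA family known to repress the autophagy gene Becn1. Its member (chr1:23272142-23272407) was 266 bp wide and held 36 tags, with an old TSA peak 268 bp away, an old vehicle peak 14432 bp away and a young TSA peak 183 bp away. The mature sequences are given with the seed, bases 2 to 8, in capitals.
mmu-miR-30a-5p: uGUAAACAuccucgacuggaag
mmu-miR-30a-3p: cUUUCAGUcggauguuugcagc

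The stretch held 7571 H3K27ac peaks with 1497491 tags in old TSA, 5727 peaks with 952786 tags in old vehicle, 5945 peaks with 1376021 tags in young TSA, and 7891 peaks with 1659160 tags in young vehicle. These are tags inside peaks, since library totals are not given in the sources used here, and young vehicle had the longest list. All 12 genes of FAP and fibroblast identity on the stretch had a young vehicle H3K27ac peak in the gene or within 10000 bp. The same held for 9 of 16 muscle fibre genes, 5 of 6 muscle stem cell genes, 11 of 16 macrophage genes, 10 of 16 lymphocyte genes, 8 of 13 endothelial genes, 3 of 6 pericyte genes, 2 of 3 tenocyte genes, 2 of 4 Schwann cell genes and 5 of 17 neural genes. It also held for all 14 housekeeping genes and all 7 genes of acetylation enzymes and readers. Of the 3789 protein-coding genes on the stretch, 664 had a member in these windows. A further 1667 had a young vehicle peak but no member. These windows can take in peaks of neighbouring genes.

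The 1475 members made up 20.4% (19.5 to 21.3) of the 7238 regions with a young vehicle peak. Regions found in 1 library alone were fewer elsewhere: 902 in old TSA (13.9% of its regions), 119 in old vehicle (2.66%) and 154 in young TSA (2.99%). With each list held to its 5727 peaks of most tags, a step added after seeing the data, such regions were 9.84% (9.06 to 10.7) in young vehicle, 7.11% (6.41 to 7.85) in old TSA, 6.08% in old vehicle (5.39 to 6.82) and 6.34% in young TSA (5.68 to 7.05). The number in young vehicle was then 528. Another 514 regions were shared by young vehicle and old TSA only, 105 by young vehicle and old vehicle only, and 308 by young vehicle and young TSA only, while 3706 had a peak in every library. Members were 21.8% of young vehicle regions on chromosome 1, 18.6% on chromosome 2 and 21.4% on the part of chromosome 3.

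Members were narrow and weak. Each consisted of a single young vehicle peak, and their median width was 358 bp (quartiles 255.5 and 520.5 bp), against 1367 bp for regions found in every library. Their median tag count was 51 (quartiles 39 and 68, range 20 to 279), against 269 young vehicle tags in regions of every library. Per kb of peak the median was 140 tags in members and 196 tags in regions of every library. Regions found only in old TSA were much the same in this respect, with medians of 335 bp and 49 tags. The members therefore held 18.7% of the young vehicle peaks but 7.74% of the length under them (0.623 Mb) and 5.13% of their tags.

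The share of peaks found in 1 library alone fell steeply with tag count in every library. When the young vehicle peaks were ordered by tags and divided into 10 equal parts, members made up 60.3% of the part with fewest tags, 47.5% of the next and 13.7% of the fifth. They made up 0.253% of the eighth part and none of the top 2 parts. The lowest part held 45.0% such peaks in old TSA, 12.2% in old vehicle and 13.6% in young TSA. Members were thus drawn from the weak end of the longest list, and whether weaker acetylation lay below the calling threshold in the other libraries cannot be read from peak lists.

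**Figure D1:**
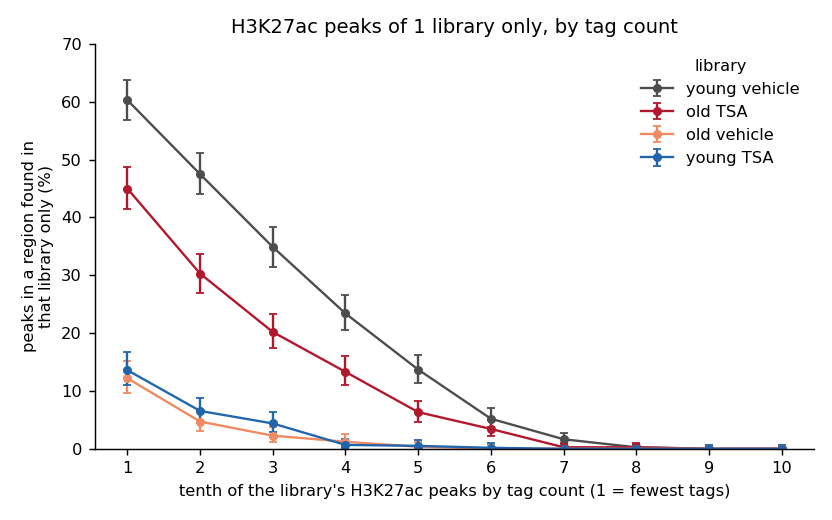
Share of H3K27ac peaks that lay in a region found in that library only (%, vertical axis) for 10 equal parts of the library's peaks ordered by tag count (horizontal axis), with exact 95% intervals. In the part with fewest tags the share was 60.3% in young vehicle, 45.0% in old TSA, 12.2% in old vehicle and 13.6% in young TSA, and it reached 0 in all 4 libraries in the part with most tags.

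Many members lay beside peaks of the other libraries. The median distance to the nearest peak of any other library was 1627 bp, and 484 members (32.8%) had one within 500 bp. By library the median distance was 2692 bp to old TSA peaks, 6445 bp to old vehicle peaks and 3455 bp to young TSA peaks. At the other extreme, 97 members (6.58%) were over 50000 bp from any peak of another library. The closest call inside the rule was a member within Frmd4a (chr2:4474932-4475466, 78 tags), 4 bp from a young TSA peak. The closest outside it was a young vehicle peak 109448 bp from Fibin (chr2:110472441-110472608, 31 tags) that overlapped another library's peak by 3 bp. When peaks up to 500 bp apart were merged, 831 regions held a young vehicle peak and none of another library; neighbouring members also merge with one another in that count.

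The members rarely touched gene ends. In all, 95 (6.44%, 5.24 to 7.82) touched the 1000 bp on either side of an annotated end of a protein-coding gene, against 29.9% of all young vehicle regions and 46.6% (45.0 to 48.2) of regions found in every library. Most members, 960 (65.1%, 62.6 to 67.5), lay inside a gene away from its ends, against 33.5% of regions found in every library. The remaining 420 (28.5%) lay outside genes, at a median of 36038 bp from the nearest gene. Regions found only in old TSA touched gene ends in 12.5% (10.4 to 14.9) of cases. The share was 8.40% (4.10 to 14.9) for regions of old vehicle only and 9.74% (5.55 to 15.6) for regions of young TSA only. Promoter windows of protein-coding genes overlapped 16 members (1.08%) and 1383 regions of every library (37.3%).

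The difference in position was also present between regions of like width. Among young vehicle regions of 1 peak, grouped by the quartiles of the members' width, members touched a gene end in 7.05%, 7.84%, 5.99% and 4.88% of cases from the narrowest to the widest group. Shared regions of the same widths did so in 29.1%, 27.5%, 26.5% and 36.0%. This grouping was chosen after the data were seen.

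**Figure D2:**
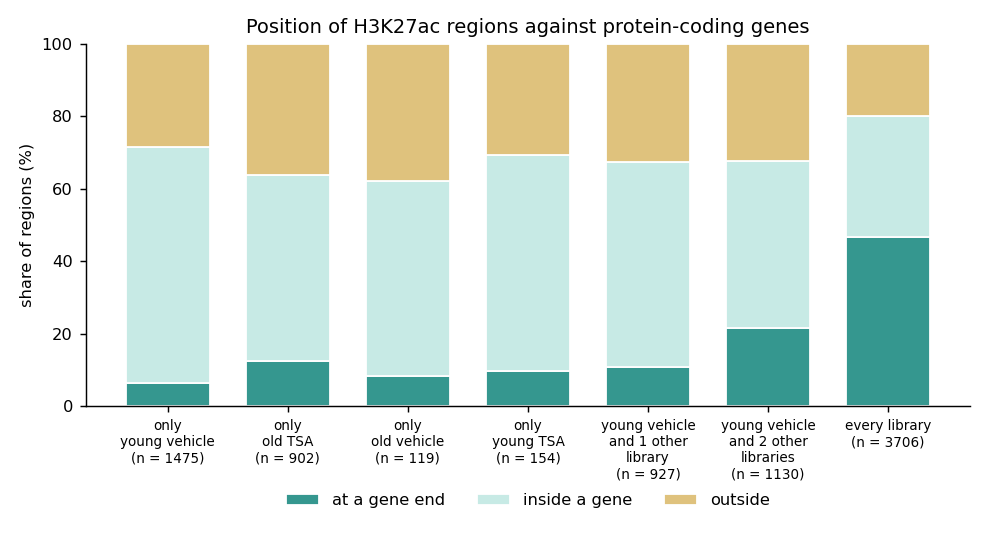
Position of H3K27ac regions against protein-coding genes (share of regions, %) for regions found in young vehicle only, in each other library only, in young vehicle with 1 or 2 other libraries, and in every library. The gene-end share was 6.44% in the regions of young vehicle only, 10.9% with 1 other library, 21.5% with 2 others and 46.6% in every library.

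The members that did touch a gene end often did so at the far end of the gene, where transcription stops. The strand was known from the promoter table for 84.2% of the genes. Of 80 members that touched an end of such a gene, 46 touched the start side, 33 the far side and 1 both. The share on the far side alone was 41.2% (30.4 to 52.8), against 16.7% (9.64 to 26.0) for 90 regions found only in old TSA and 4.65% (3.63 to 5.86) for 1463 regions of every library. The Cd34 member at chr1:194960324-194961242, with 124 tags, lay at the far end of this progenitor surface antigen gene, and the nearest peaks of other libraries were 9180 bp (old TSA), 13420 bp (old vehicle) and 13376 bp (young TSA) away.

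Among the gene-end members with most tags, that at Rabepk and Hspa5, the gene of the endoplasmic reticulum chaperone BiP (chr2:34773577-34775190), held 173 tags. It lay 192 bp from an old TSA peak, 236 bp from an old vehicle peak and 193 bp from a young TSA peak. Fabp5, the gene of a fatty acid carrier protein, followed with 167 tags over 1733 bp (chr3:10012592-10014324). It stood alone: the nearest other peaks were 78346 bp (old TSA), 128725 bp (old vehicle) and 78282 bp (young TSA) away. The others were at Gabpb1, a subunit of the transcription factor GABP (148 tags), Cd34, Rap2b, a small GTPase (116 tags), Sh2d2a, a T-cell adaptor (94 tags), Ints3, an Integrator subunit (94 tags), Ttf2 (81 tags), Ncstn, a gamma-secretase subunit (81 tags), and Ugt1a7c (79 tags).

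H3K9/14ac, measured in libraries that the choice of members did not use, was scarce at the members, as it was at regions found only in another library. Its 4 lists cover 1085 members. A peak overlapped 54 of these (4.98%, 3.76 to 6.44) in old TSA, 46 (4.24%, 3.12 to 5.61) in old vehicle, 61 (5.62%, 4.33 to 7.16) in young TSA and 62 (5.71%, 4.41 to 7.27) in young vehicle. Over all 5298 young vehicle H3K27ac regions there, the shares were 36.9%, 38.6%, 40.6% and 35.8% in the same order of libraries. For regions of every library they were 60.5%, 63.2%, 65.1% and 58.9%. The 4 intervals for the members overlap one another in these whole lists. The same members were scored in each library, so this overlap cannot show whether the H3K9/14ac libraries differed, which was not tested. With H3K9/14ac lists of equal length by tags the shares were 4.98% (3.76 to 6.44) in old TSA, 2.67% (1.80 to 3.82) in old vehicle, 4.06% (2.96 to 5.41) in young TSA and 4.88% (3.68 to 6.34) in young vehicle. The intervals of old TSA and old vehicle then overlapped only between 3.76 and 3.82.

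In all, 988 members (91.1%) had no H3K9/14ac peak in any library. The same held for 81.5% of regions found only in old TSA, 91.8% of those only in old vehicle and 80.6% of those only in young TSA. For regions shared by young vehicle and old vehicle only it was 92.4%, and for regions of every library 27.6%. Of the 97 members that had an H3K9/14ac peak, 26 had it in all 4 libraries and 12 in young vehicle alone. Of the 26, 20 touched a gene end. Gene-end members overlapped an H3K9/14ac peak in 51.6% (38.6 to 64.5) of 62 cases in old TSA, 40.3% in old vehicle, 43.5% in young TSA and 45.2% (32.5 to 58.3) in young vehicle. Gene-end regions of every library did so in 93.8%, 93.2%, 93.8% and 92.9% in that order. Members inside genes had the mark in 2.30% of 740 cases in old TSA, 2.30% in old vehicle, 3.65% in young TSA and 3.51% in young vehicle.

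The H3K9/14ac peaks found on members held fewer tags than the list's median in 3 of the 4 libraries. Their median tag count was 139 in old TSA, 88 in old vehicle, 78 in young TSA and 74 in young vehicle, against medians of 138.5, 133, 108 and 122 over the whole lists. The member at Hspa5 and Rabepk had an H3K9/14ac peak of 128 tags in young vehicle and none elsewhere. Members in Lbr, the lamin B receptor gene (53 H3K9/14ac tags), and Hecw2, a ubiquitin ligase gene (46 tags), likewise had the mark in young vehicle alone. The Copa and Ncstn member had the mark in all 4 libraries, with 74 tags in old TSA, 90 in old vehicle, 63 in young TSA and 91 in young vehicle. At Slc30a1, a zinc exporter gene, the mark was listed in both young libraries, with 414 tags in young TSA and 315 in young vehicle, and in neither old one. Of the members with a young vehicle H3K9/14ac peak, others among the 10 with most H3K27ac tags lay in Ppp1r15b and outside genes, 7974 bp from Nmi, 43001 bp from Echdc3 and 31712 bp from Xcl1.

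**Figure D3:**
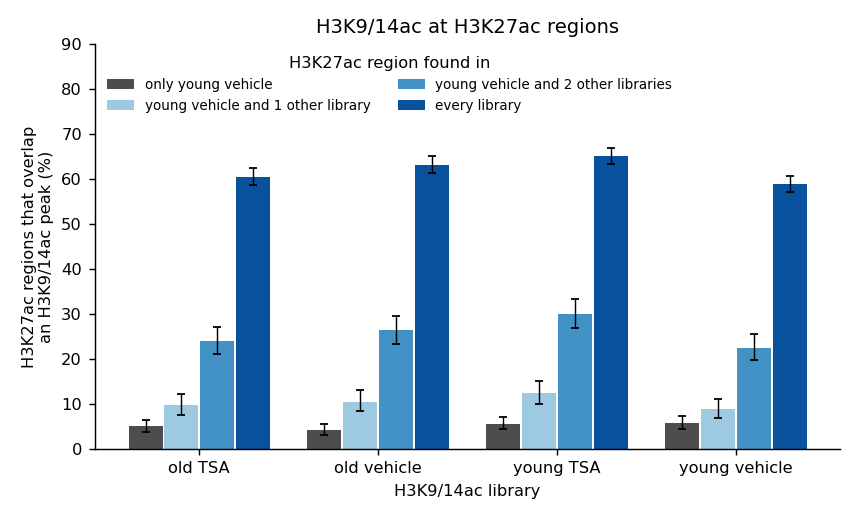
Share of H3K27ac regions that overlapped an H3K9/14ac peak (%, vertical axis) in each H3K9/14ac library (horizontal axis), by the H3K27ac libraries in which the region was found, with exact 95% intervals. Regions of young vehicle only lay between 4.24% and 5.71% in all 4 libraries, and regions of every library between 58.9% and 65.1%.

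The members with most tags are described next. The strongest was inside Asxl1, a chromatin regulator gene (chr2:153349686-153351639), with 279 tags over 1954 bp, and the nearest peaks were 2178 bp (old TSA), 1934 bp (old vehicle) and 1632 bp (young TSA) away. A member in Celf1, an RNA-binding protein gene (chr2:90964723-90966421), held 236 tags and lay 23165 bp from the nearest peak of another library. Next came Cflar, an inhibitor of death receptor signalling (192 tags), Zeb2, a zinc finger repressor of epithelial genes (188 tags), and a region 94253 bp from Mettl11b (186 tags). Nckap1, an actin regulator, held 181 tags, Prex2, a Rac exchange factor, held members of 180 and 163 tags, and Baz2b, a bromodomain protein gene, held 176 tags. Hspa5, Fabp5 and Igsf10 (160 tags) completed the 12. Their distance to the nearest peak of another library ranged from 172 bp at Nckap1 to 78282 bp at Fabp5.

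The spacing of members varied widely. The median gap between neighbouring members was 61462 bp, and 857 (58.1%) had no other member within 10000 bp. The other 618 formed groups, of which 67 held 3 or more members and 260 members in all. The largest group, 9 members, lay in Rbms1, an RNA-binding protein gene, at chr2:60817721-60838183. That span held 11 regions, of which 2 had a peak in old TSA, 0 in old vehicle, 1 in young TSA and 11 in young vehicle.

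The share of genes with a member was higher among longer genes and among genes with more shared peaks. Of 3789 protein-coding genes on the stretch, 664 (17.5%) had a member in the gene or within 10000 bp, and these windows took in 1148 members (77.8%). The share with a member was 3.44% for genes with no shared young vehicle peak, 15.6% with 1, 22.2% with 2 to 3, 40.9% with 4 to 7, 70.9% with 8 to 15 and 96.7% with 16 to 41. It was 6.75% for the 948 shortest genes, up to 6.41 kb, and 34.3% for the 947 longest, from 51.0 kb. Members lay within 5000 bp of a region found in every library in 42.8% (40.3 to 45.4) of cases, against 40.1% (36.9 to 43.4) for regions of old TSA only, 43.7% (34.6 to 53.1) for regions of old vehicle only and 27.3% (20.4 to 35.0) for regions of young TSA only. Regions shared by young vehicle and 2 other libraries gave 43.0% (40.1 to 46.0).

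The regions of every library that lay next to members were somewhat weaker relative to young vehicle than those far away. Within 1000 bp of a member, 341 such regions had a median log2 ratio of tags of -0.25 for old TSA, -0.66 for old vehicle and -0.19 for young TSA over young vehicle. The 1785 regions more than 50000 bp from any member had medians of -0.06, -0.60 and -0.08. Interquartile ranges overlapped widely, from -0.52 to -0.01 beside members and from -0.32 to 0.25 far from them for old TSA. These ratios use the same libraries as the rule and are a description.

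The 12 genes with most members were Fndc3b and Plcb4 with 14 each, Rbms1 and Celf2 with 13 each, Fmnl2, Mecom, Col5a2 and Rapgef2 with 12 each, Wwtr1 and Rgl1 with 11 each, and Fbn1 and Zeb2 with 10 each. Col3a1 also had 10, with fewer tags in them. Fndc3b, a fibronectin type III domain protein gene (chr3:27416135-27711307), had 37 peaks in old TSA, 21 in old vehicle, 28 in young TSA and 44 in young vehicle. Fbn1, the gene of the microfibril protein fibrillin-1, had 31 peaks in old TSA, 17 in old vehicle, 15 in young TSA and 41 in young vehicle. Mecom encodes a zinc finger transcription factor, Wwtr1 the Hippo pathway coactivator TAZ, Plcb4 a phospholipase C, Fmnl2 a formin that elongates actin filaments, and Rapgef2 and Rgl1 exchange factors for small GTPases. Members made up from 10.5% of the young vehicle acetylated length at Rgl1 to 35.2% at Col5a2.

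**Figure D4:**
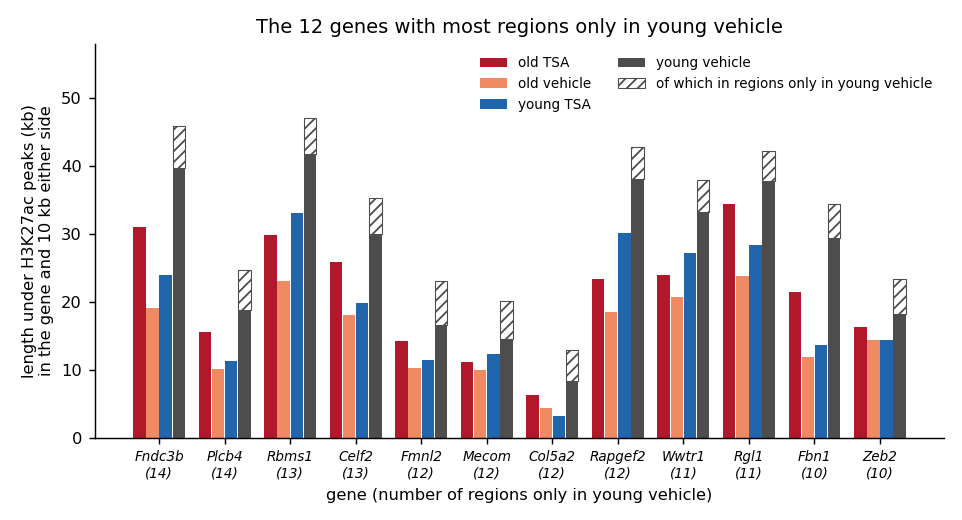
Length under H3K27ac peaks (kb, vertical axis) in the gene and 10 kb either side, for the 12 genes with most regions of young vehicle only (ties by tags), whose number stands under each name. The hatched part of the young vehicle bar is the length in those regions, 4565 bp of 12954 bp at Col5a2. Young vehicle has the tallest bar at each of the 12 genes, which follows in part from their choice by such regions. Over the whole stretch, peaks covered 6.91 Mb in old TSA, 4.83 Mb in old vehicle, 5.99 Mb in young TSA and 8.05 Mb in young vehicle.

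Col5a2, which encodes a type V collagen chain that sets the diameter of collagen fibrils (chr1:45374331-45503282), stood out by proportion. Of its 18 young vehicle peaks, 12 (66.7%) were members, against a median of 20% over the 213 genes with at least 8 young vehicle peaks. Its members held between 30 and 113 tags each. The gene had 9 peaks over 6289 bp in old TSA, 4 over 4304 bp in old vehicle, 3 over 3198 bp in young TSA and 18 over 12954 bp in young vehicle. The same proportion was reached at Spred1, an inhibitor of Ras signalling, with 8 of 12 peaks, and Dock10, an exchange factor for small GTPases, followed with 7 of 11. Spred1, Dock10, Tmem131 (62.5%), Sema6d (55.6%), Fat4 (55.6%) and Gulp1 (54.5%) were ranked after their values were seen. Cd34 had 6 of 11 peaks (54.5%).

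**Figure D5:**
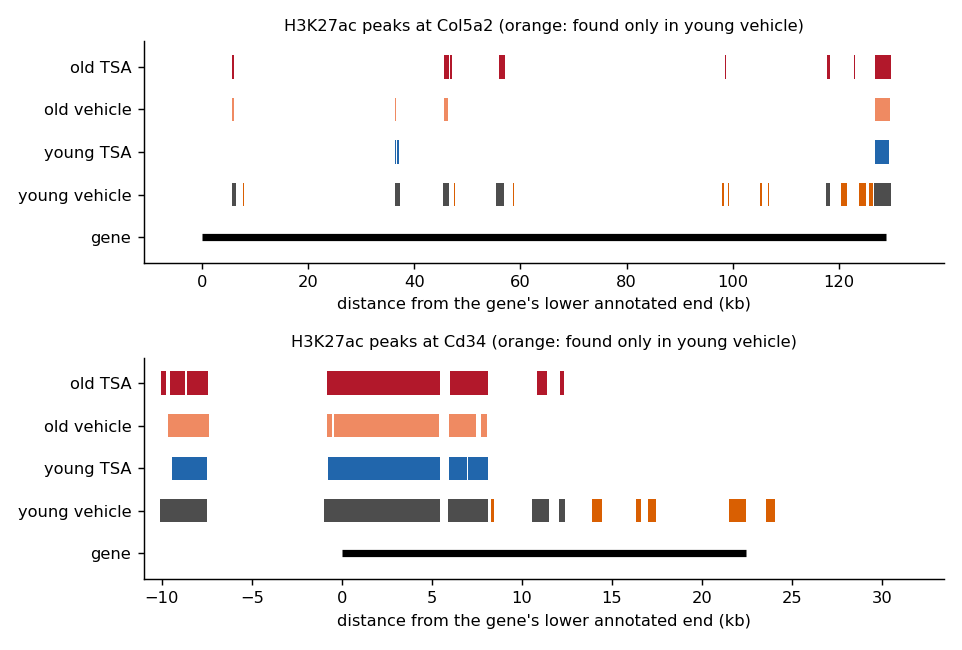
H3K27ac peaks of the 4 libraries along Col5a2 and Cd34, as distance from the gene's lower annotated end (kb, horizontal axis), with a row for each library and the gene as a black bar. Orange peaks are those found in young vehicle only, 12 at Col5a2 and 6 at Cd34.

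Among the 664 genes with a member, acetylated length was shorter than in young vehicle at 585 in old TSA, 658 in old vehicle and 636 in young TSA, where over all genes of the stretch it was shorter at 45.6%, 57.9% and 52.4%. The rule used this contrast, so the counts follow in part from it. With the members' own length left out, it was shorter at 67.3% in old TSA, 88.3% in old vehicle and 77.6% in young TSA. The 1667 genes with a young vehicle peak but no member gave 68.5%, 92.1% and 81.0%. At 52 of the 664 genes every young vehicle peak was a member. With members left out, no young vehicle length remained there, so no library could be shorter. These genes stayed in the 664 and lower its shares, so the shares of genes with and without members cannot be compared directly.

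At 52 genes every young vehicle peak was a member, and 45 of these had no peak in any other library. They were picked by the same values, after these were seen, and are listed as a description. By tags of members the first were Fabp5, Slc28a2, a nucleoside transporter gene with 3 members and 149 tags, Il1rl1, which encodes the interleukin-33 receptor ST2, with 2 members and 139 tags, and Cel, a lipase gene with 2 members and 111 tags. Cd1d1, a lipid antigen presenting molecule (105 tags), and Kcnk2, a potassium channel (97 tags), each had 1. Nek2 was also among the 45.

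Gene lists were then counted against the 17.5% of all genes with a member. Of 12 FAP and fibroblast identity genes, 9 had at least 1 (95% interval 42.8% to 94.5%), and all 9 had one inside the gene body. Col3a1, the gene of type III collagen, had 10, Cd34 and the collagen receptor gene Ddr2 6 each, and Prrx1, a homeobox factor of limb mesenchyme, 5. Tbx15 had 3, Mme 2, and Dpp4 and Meis2 1 each, while Twist2, Cd55 and Gsn had 0. These genes are named because they bear on the labelled cell type, a choice made after their values were seen. These genes had a median of 7 shared young vehicle peaks. Of the 12, 1 had 1 such peak, 2 had 2 to 3, 3 had 4 to 7, 5 had 8 to 15 and 1 had 16 or more. Members were found at 0, 2, 2, 4 and 1 of these, in that order. Of all genes with so many such peaks, 15.6%, 22.2%, 40.9%, 70.9% and 96.7% had a member. The number of shared peaks thus differed along with the count, and its part in it was not tested.

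At the FAP genes, acetylated length varied between libraries well beyond the members. Col3a1 was covered over 14307 bp in old TSA, 7412 bp in old vehicle, 10192 bp in young TSA and 20956 bp in young vehicle, of which members made up 2795 bp. Prrx1 was covered over 16835 bp in old TSA, 11075 bp in old vehicle, 9648 bp in young TSA and 21641 bp in young vehicle, with 1812 bp in members. Gsn, the gene of the actin-severing protein gelsolin, had no member and was covered over 18610 bp in old TSA, 14712 bp in old vehicle, 10437 bp in young TSA and 12255 bp in young vehicle.

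Matrix genes were next. Of 26 genes of matrix glycoproteins and remodelling, 11 had a member (42.3%, 23.4 to 63.1), led by Fbn1 with 10 and by the laminin chain gene Lamc1 with 9. Of 10 collagen genes 3 had one, namely Col5a2, Col3a1 and Col5a1, which had 3 members. Of 17 genes of TGF-beta and BMP signalling, 7 had one (41.2%, 18.4 to 67.1). These included Skil, a Smad corepressor, Acvr1, a BMP type I receptor, and Eng, a coreceptor, with 3 members each. Of 13 integrin and adhesion genes 6 had one, among them Cd44, the hyaluronan receptor, with 5, the focal adhesion gene Tns1 with 3 and Itgb6 with 2. Median gene length was 24.3, 132, 27.9 and 115 kb for these lists, in the order named. The median number of shared young vehicle peaks was 3.5, 1.5, 1 and 3. Over all genes, 17.5% of those of 20.1 to 51.0 kb and 34.3% of the 947 longest had a member. By shared peaks the share was 15.6% with 1, 22.2% with 2 to 3 and 40.9% with 4 to 7. The part of length and shared peaks in these counts was not tested.

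Signalling, metabolic and general lists were counted in the same way. Of 19 growth factor and cytokine genes 6 had a member, led by Il1r1 with 5, Il6ra with 3 and Il1rl1 with 2. Of 12 adipogenesis genes 3 had one, namely Fabp5 with 1, Foxo1, a forkhead factor, with 3 and Fabp4, a fat cell lipid carrier, with 2. Of 14 senescence genes 5 had one, led by Nfe2l2, the oxidative stress factor NRF2, with 4, and by Tgfb2 with 2. Of 17 Wnt, Notch and Hedgehog genes 3 had one, and of 21 cell cycle genes 2 (Nek2 and Ube2c, an E2 enzyme of mitosis). Of 12 immediate early and stress response genes 2 had one, namely Hspa5 and Dusp10. Of 7 acetylation enzymes and readers 3 had one, namely the coactivators Ncoa3 with 5 and Ncoa2 with 1, and Kat14 with 1. Of 14 housekeeping genes 6 had one (42.9%, 17.7 to 71.1), of which 3 inside the gene, led by Ywhab with 2; Hspd1 and Hspe1 share a single member of 45 tags.

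Markers of other cell types also had members, at shares whose intervals all include 17.5%. They were found at 5 of 16 macrophage genes (among them Mertk with 3 and Fcer1g with 1), 3 of 16 lymphocyte genes, of which 1 inside the gene, and 3 of 13 endothelial genes, led by Tm4sf1 with 5. They were found at 3 of 16 muscle fibre genes, of which 0 inside the gene, at 1 of 6 muscle stem cell genes, 1 of 3 tenocyte genes, 2 of 4 Schwann cell genes, 0 of 6 pericyte genes and 1 of 17 neural genes. Fcer1g and the protease gene Adamts4 share 1 member of 102 tags. The muscle fibre gene Tnnc2 and the cell cycle gene Ube2c share 1 member of 35 tags, which lay outside both genes. A part of other cells in the members was not tested.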

How the data were processed

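The deposited files are HOMER peak lists, 1 per library, each with a raw tag count per peak that the authors did not normalize, per the file headers. Bowtie 0.12.7, MACS2 and HOMER are named in the submitters' processing notes for GRCm38, without their roles. Each list as used here breaks off in an incomplete line. H3K27ac was compared on chromosomes 1 and 2 and on chromosome 3 to position 122275556 (17.9% to 18.3% of the peaks in the headers), and H3K9/14ac on chromosome 1 and on chromosome 2 to position 167064301 (12.5% to 12.8%). The 4 input samples were not used. Per-sample columns of other series numbered 0.

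Peaks were merged with Python 3.11.15, numpy 2.4.6 and pandas 2.3.3, after the merging was tested on simulated data, and intervals came from scipy 1.17.1. Genes, without strand, came from the RefSeq table of GRCm38.p6, and strand from its promoter table. Gene ends were 1000 bp either side of both annotated ends, and gene windows 10000 bp either side. Members and gene lists were chosen with earlier results of these data known. Genes named are the 12 members with most tags, the 12 genes with most members, up to 3 genes per list by tags in members, and up to 10 members by tags at gene ends or with young vehicle H3K9/14ac; exceptions are stated. Of the list symbols, 0 were unmatched. Some genes that this rule selects are not reported here.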

Additional observations from a re-analysis of the deposited data

How the results depend on the processing

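No paired analysis was possible because each group had 1 library and the labels give no replicate numbers. The number of members depended on the definition of a shared region. It was 831, 704 and 436 when peaks up to 500, 1000 and 5000 bp apart were merged, 528 and 596 (9.84% and 11.1% of young vehicle regions) when the lists were brought to equal length by tags or by width, and 574 and 598 with the upper 50% of each list by tags or by width. Of the upper 50% of young vehicle peaks by tags, set against whole lists, 57 were found in young vehicle only. Asking for 10% or 50% of the peak to be covered gave 1482 and 1791. Leaving out old TSA gave 2091, old vehicle 1591 and young TSA 1857. The share of young vehicle regions was 21.8%, 18.6% and 21.4% on chromosomes 1, 2 and 3, against 20.4% in all.

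The gene-end share was 4.27% at 500 bp and 13.2% at 2500 bp, where regions of every library gave 43.5% and 51.2%, and 6.13% in members above the median of tags, which was chosen after seeing the data. H3K9/14ac within 500 bp was found at 9.95% of members in old TSA, 9.12% in old vehicle, 10.9% in young TSA and 10% in young vehicle. With H3K9/14ac lists of equal length by tags the share was 4.98% in old TSA, 2.67% in old vehicle, 4.06% in young TSA and 4.88% in young vehicle. Members within 1000, 10000 and 50000 bp of a region of every library were 23.3%, 52.9% and 82.3%. Genes with a member were 492 by gene body alone, 542 with 2000 bp either side and 672 by nearest gene. Peak lists hold no tags below the calling threshold, so a weaker signal in the other libraries was not measured.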
